A study of Macaca mulatta with 5 samples.

Results

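The regions described are 37902 MeDIP peaks that were called in R_NSCP1 cells of the rhesus monkey (Macaca mulatta) at places with no peak nearby in rhesus embryonic stem cells (rESC). MeDIP-seq pulls down sheared methylated DNA with an antibody and sequences it, and a peak is a place where the sequenced fragments pile up above the surrounding background. The peaks were chosen from the 83528 of the R_NSCP1 list in 4 steps. Chromosomes 1 to 18 and 20 held 74359 of them, 74091 of these were shorter than 1000 bp, and 61499 of these had their midpoint more than 5000000 bp from either end of the chromosome. Of these interior peaks, 37902 had no rESC peak within 500 bp and 23597 had one. They are called R_NSCP1-only and shared interior peaks below, and 11816 rESC-only interior peaks were found by the mirrored rule. Since the presence of peaks in both lists chose the regions, their number and their strength are given as a description, with no test.

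The study compared rESC with R_NSCP1 in 1 MeDIP and 1 long noncoding RNA (lncRNA) library each, in work on how cells leave the embryonic stem cell state for a neural fate. A mixed MeDIP input of these cells was not analysed here. The labels give embryonic stem cell as the cell type of every library and do not spell out R_NSCP1, and they name no treatment, passage or animal. There were no replicates, so every difference below is one between 2 libraries, and the intervals cover counting error only. The R_NSCP1 library held 9071243 tags and the rESC library 8690541, a ratio of 1.04. Peaks were called without a control, so differences in copy number or mappability stay in the lists.

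In mammals DNA methylation sits mostly on cytosines followed by a guanine, and it is laid down by the DNMT3 enzymes and copied at each division by DNMT1. It is pervasive along chromosomes, is sparse at active promoters and CpG islands, and is redistributed at enhancers and promoters as pluripotent cells commit to a lineage. MeDIP favours places where methylated CpGs are dense, so a peak reflects both how methylated a place is and how many CpGs it holds. The peaks were named by position only, since no genome or annotation of the files' build was used, and their CpG content, sequence and genes were not analysed here.

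In the lists as deposited, R_NSCP1-only peaks were the majority of interior R_NSCP1 peaks, but not among the stronger ones. Their share was 61.6% (95% Wilson interval 61.2% to 62.0%), and over the whole R_NSCP1 list 58.3% of peaks lacked an rESC peak within 500 bp. With the R_NSCP1 list cut to the length of the rESC list the share was 47.5%, and at a −log10 q of at least 10 it was 30.1%. The mirrored share, from the shorter rESC list of 48838 peaks against the 83528 of R_NSCP1, was 33.8% of 35004 interior rESC peaks. The R_NSCP1-only peaks covered 10.5 Mb, or 0.423% of the 2477 Mb of interior sequence, the shared R_NSCP1 peaks 8.44 Mb and the rESC-only peaks 3.29 Mb. The distance rule decided few of them, since 1051 further R_NSCP1 peaks lay near an rESC peak without overlapping it. Just inside the rule, in the first 100 bp beyond its limit, stood 143 peaks with a median pileup of 13 fragments and a median −log10 q of 6.92. The last 100 bp before the limit held 157 peaks, left out by the rule, with medians of 14 and 7.24.

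R_NSCP1-only peaks were lower and narrower than shared ones, and their median height and length were close to those of rESC-only peaks. The pileup, the depth of overlapping fragments at the summit, had a median of 11 (quartiles 9 and 14, range 5 to 95), against 16 (12 and 22, range 6 to 432) in shared R_NSCP1 peaks. The median fold enrichment over local background was 5.84 against 7.12, and the median −log10 q was 6.63 against 10.005. The median length was 256 bp against 316 bp, and 29.1% of R_NSCP1-only peaks against 9.17% of shared ones had exactly the fragment length of 236 bp, the shortest length in the list. A −log10 q of at least 10 was reached by 5101 R_NSCP1-only peaks (13.5%) and by 11822 shared ones (50.1%). These values are the authors', and both sets come from the same library. The rESC-only peaks had a median pileup of 10, a median −log10 q of 5.58 and a median length of 257 bp, and 41.3% of them had the fragment length of the rESC library, 249 bp.

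The share of R_NSCP1-only peaks went down as peaks became higher. It was 84.9% (83.5% to 86.1%) among the 2942 interior R_NSCP1 peaks with a pileup of 5 to 7, 77.4% (76.3% to 78.4%) at 10, and 59.9% (59.0% to 60.8%) at 13 to 15. It was 24.8% (23.7% to 25.9%) at 21 to 30, and at 51 and over 4 of 822 peaks were R_NSCP1-only. The 48838 strongest R_NSCP1 peaks, as many as the rESC list holds, left 16163 R_NSCP1-only peaks.

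**Figure D1:**
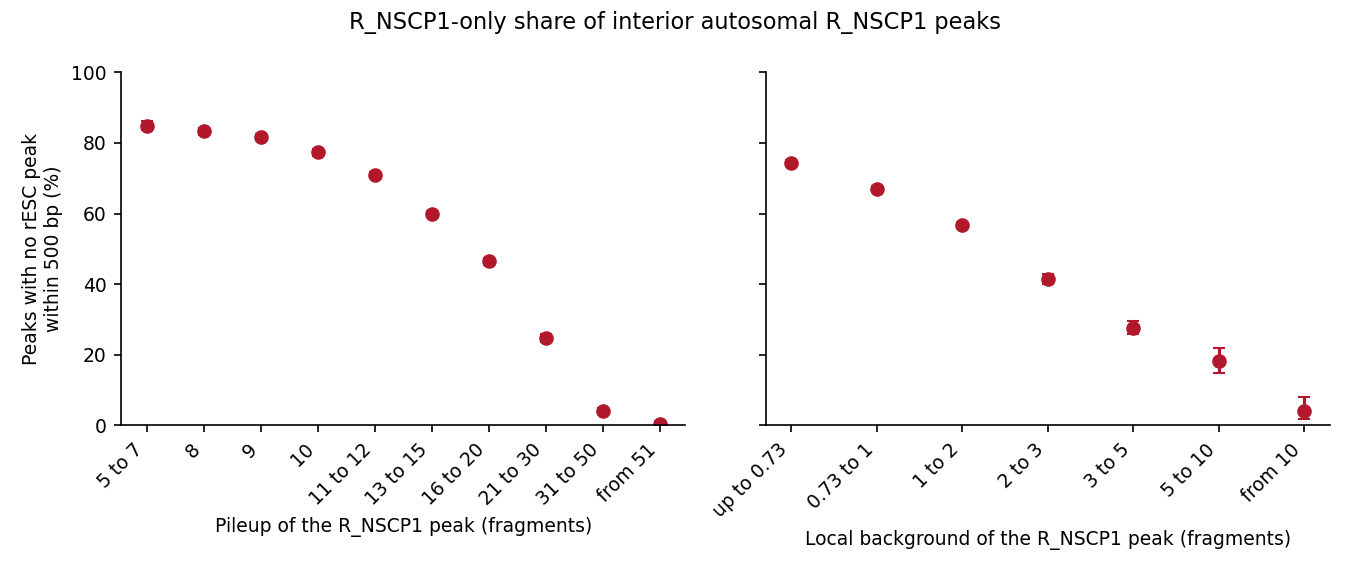
Share of interior autosomal R_NSCP1 peaks with no rESC peak within 500 bp (y axis, percent) by pileup of the R_NSCP1 peak (left, fragments) and by its local background (right, fragments); points are shares and bars 95% Wilson intervals. The share runs from 84.9% at the lowest pileups to 0.487% from 51 fragments, and from 74.4% at the lowest background to 3.95% above 10 fragments.

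The peak caller asked nearly the same height of both libraries. The genome-wide background, from the tags, the fragment length and the genome size in the file headers, was 0.714 fragments in R_NSCP1 and 0.721 in rESC. At that background the lowest listed pileup was 5 in both lists. A pileup of 9 carried a −log10 q of 5.86 in R_NSCP1 and 5.58 in rESC, and a pileup of 12 carried 9.18 and 8.87. At equal pileup and this background the R_NSCP1 list held more peaks at each height from 5 to 12: 2147 against 1576 at a pileup of 7, 5559 against 3397 at 9, and 1328 against 647 at 12. The ratio was 1.36 at 7, 1.64 at 9 and 2.05 at 12. The rESC list gives no value at places that were not called, so how far rESC fell short of a call at an R_NSCP1-only peak is unknown.

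Local background moved with these results. The background was at its genome-wide value for 36.7% (36.2% to 37.2%) of R_NSCP1-only peaks, 20.2% (19.7% to 20.8%) of shared ones and 46.9% (46.0% to 47.8%) of rESC-only ones. R_NSCP1-only peaks made up 74.4% of the interior R_NSCP1 peaks at the lowest background, up to 0.73 fragments, 41.5% at 2 to 3 and 3.95% above 10, where 7 of 177 were R_NSCP1-only. Among interior R_NSCP1 peaks at the genome-wide background alone, the share was 87.6% at a pileup of 6, 81.3% at 9 and 61.3% at 12. The part of the background in the shares by height was not tested.

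The strongest R_NSCP1-only peaks were few and spread over all 19 chromosomes. A −log10 q of at least 20 was reached by 94 of them, with pileups of 21 to 39 (median 26) and lengths of 287 to 527 bp. They lay a median of 17625.5 bp from the nearest rESC peak, against 21949.5 bp over all R_NSCP1-only peaks. Of the 94, 83 lay more than 5000 bp away, as did 34067 of all 37902. The highest −log10 q, 30.6, belonged to a peak of 386 bp at chr14:96779243-96779628. It had a pileup of 30 and a fold enrichment of 15.6, and the nearest rESC peak was 8222 bp away. Next came a peak of 351 bp at chr16:5696372-5696722, with a −log10 q of 29.7 and a pileup of 37, 24892 bp from an rESC peak. A peak at chr10:14460363-14460690 followed, with a −log10 q of 29.2 and a pileup of 37. Of the 10 highest, 3 lay on chromosome 7 and 2 each on chromosomes 13 and 16. The peak at chr12:67817230-67817568, with a −log10 q of 24.9, was the farthest of the 10 from an rESC peak, at 91278 bp.

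The highest pileups belonged to other peaks, which stood on a high background. The highest, 95 fragments, was that of a peak of 245 bp at chr7:101941889-101942133, where the background was 34.5 fragments, the fold enrichment 2.70 and the nearest rESC peak 722 bp away. A pileup of 72 at chr5:70516069-70516358 stood on a background of 23.2, and one of 62 at chr6:34058632-34058897 on 15.6. The 5 highest pileups lay within 4338 bp of an rESC peak. A background above 5 fragments was found at 89 R_NSCP1-only peaks (0.235%), against 540 shared peaks (2.29%). The longest R_NSCP1-only peak spanned 957 bp at chr1:48948408-48949364, with a pileup of 19, and lifting the length limit added no R_NSCP1-only peak.

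R_NSCP1-only peaks were found along every chromosome, at a density that varied almost 2-fold between chromosomes. Over the interior they numbered 15.3 per Mb, from 11.5 per Mb on chromosome 5 to 22.3 on chromosome 10, followed by 19.6 on chromosome 16. The Mb counted include stretches with no peak of either list, which lower these densities. The longest such stretch, at chr20:31000001-44000000, enters the 17.2 per Mb of chromosome 20. Shared peaks had the same lowest and highest chromosomes, with 6.93 and 14.9 per Mb. Densities of rESC-only peaks lay closer together, from 4.27 per Mb on chromosome 14 to 5.50 on chromosome 10. Although density varied, the R_NSCP1-only share of R_NSCP1 peaks was similar across chromosomes, lowest on chromosome 10 at 60.04% (58.3% to 61.7%) and highest on chromosome 2 at 64.1% (62.6% to 65.6%). The intervals of chromosome 2 and chromosome 11, at 63.6% (61.9% to 65.3%), lay above the overall share, and those of the other 17 included it.

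**Figure D2:**
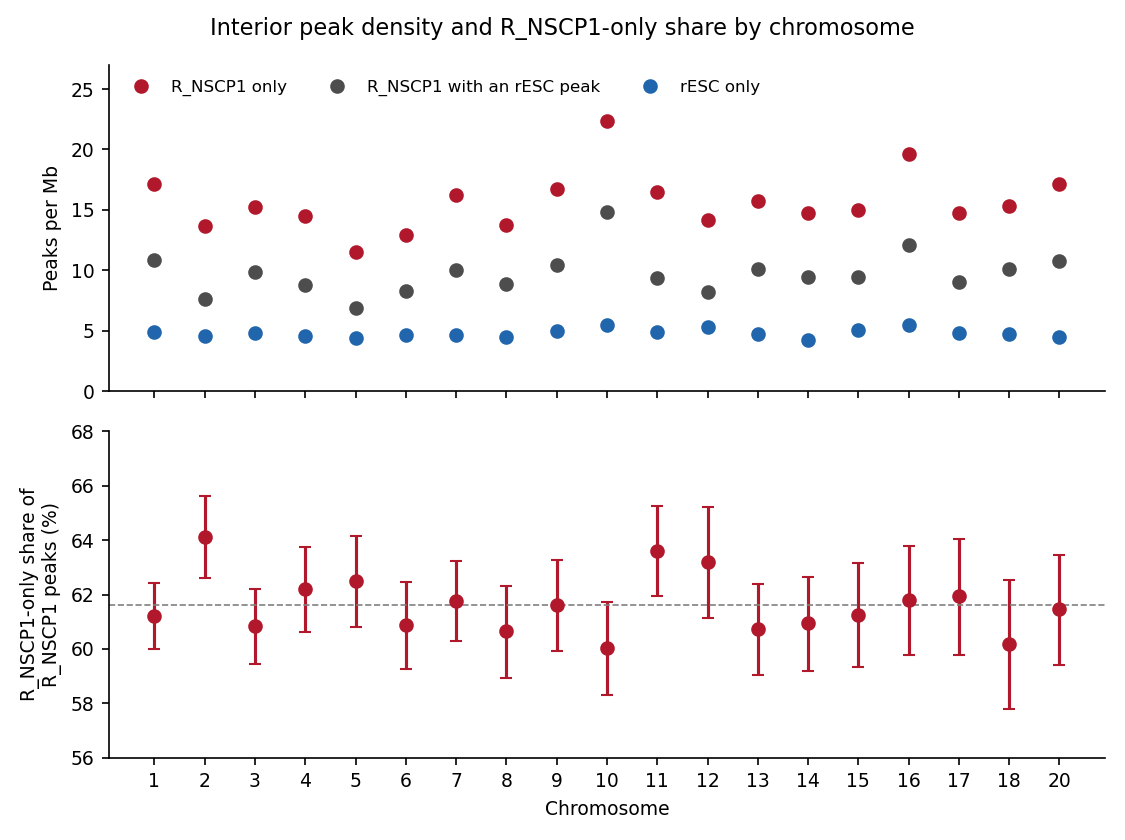
Top: interior peaks per Mb (y axis) on each chromosome (x axis) for R_NSCP1-only, shared R_NSCP1 and rESC-only peaks. Bottom: R_NSCP1-only share of interior R_NSCP1 peaks (percent, axis from 56 to 68) with 95% Wilson intervals and the overall 61.6% as a dashed line. Chromosome 10 has the highest density, 22.3 per Mb, and the lowest share, 60.04%.

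In 1 Mb windows the density of R_NSCP1-only peaks spread widely. Over 2467 interior windows there were 15.2 ± 7.87 (SD) R_NSCP1-only peaks per window, with a median of 14, quartiles of 10 and 20 and a highest count of 54. Shared peaks numbered 9.48 ± 6.29 and rESC-only peaks 4.77 ± 2.48. The variance was 4.06 times the mean for R_NSCP1-only peaks, 4.18 times for shared peaks and 1.29 times for rESC-only peaks, where randomly scattered peaks would give a ratio near 1. Because this ratio grows with the mean, the variance beyond the mean was also set against the squared mean, which gave 0.200, 0.335 and 0.0605. Leaving out the 41 windows with no peak of either list gave 0.181, 0.313 and 0.0429, so the order of the 3 sets was the same.

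Windows dense in shared peaks were also dense in R_NSCP1-only peaks. Across the 2426 windows with a peak, the 2 counts were correlated (Pearson r 0.642, Spearman rho 0.610) across windows of 1 library, which share its depth and mappability. R_NSCP1-only and rESC-only counts, from different libraries, gave 0.314 and 0.309. With windows ranked by shared peaks and cut into 5 near-equal groups, the poorest group (0 to 5 shared peaks) held 10.4 ± 5.02 (SD) R_NSCP1-only peaks per window, and the richest group (14 to 54) 23.7 ± 7.59. The R_NSCP1-only share was 76.7% in the former and 55.0% in the latter, and shared peaks both order the windows and enter this share. Among 2318 windows with at least 10 interior R_NSCP1 peaks, R_NSCP1-only peaks were the majority in 1952, exactly 50% in 94 and the minority in 272.

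**Figure D3:**
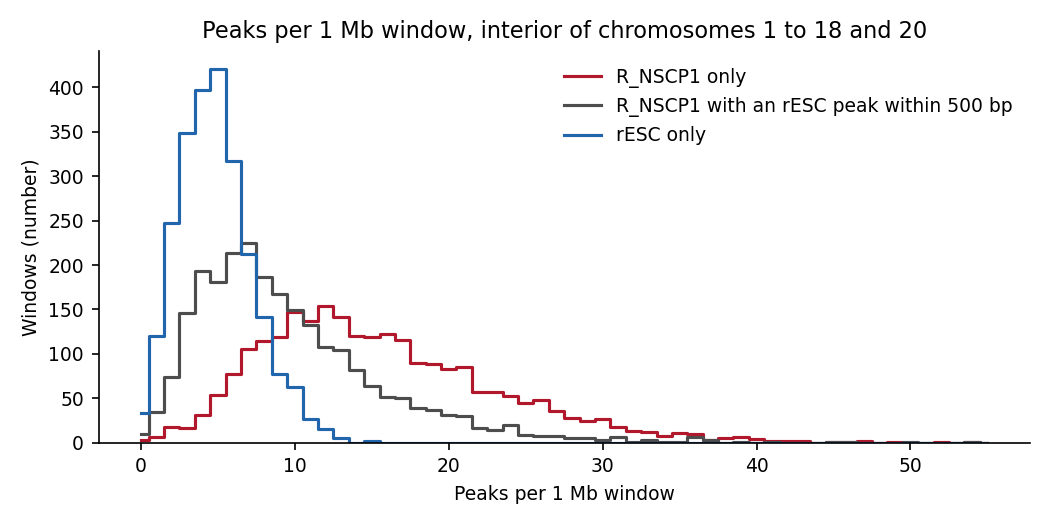
Number of 1 Mb interior windows (y axis) by peaks per window (x axis) for R_NSCP1-only, shared R_NSCP1 and rESC-only peaks, over the 2426 windows with a peak of either list. The R_NSCP1-only curve is broad, with a median of 14 and a highest count of 54, and the rESC-only curve is narrow, with a median of 5 and a highest count of 15.

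Density was highest at the margins of the interior and lower toward its middle. Windows centred 5 to 10 Mb from a chromosome end held 23.8 ± 9.24 (SD) R_NSCP1-only peaks, those at 10 to 20 Mb 18.1 ± 7.63, at 20 to 40 Mb 15.2 ± 7.34, at 40 to 60 Mb 13.4 ± 7.21 and those at 60 Mb and over 12.6 ± 6.25. From the outermost to the innermost band, shared peaks went from 17.2 to 7.64 per window and rESC-only peaks from 6.01 to 4.36. The R_NSCP1-only share was lowest at 5 to 10 Mb, 58.1% (56.9% to 59.2%), and lay between 61.6% and 62.6% in the other bands.

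The windows richest in R_NSCP1-only peaks mostly stood at the edge of the interior. Bases 5000001 to 6000000 of chromosome 1 held 54 R_NSCP1-only and 45 shared peaks, and the next window, to 7000000, held 52 and 36. Bases 5000001 to 6000000 of chromosome 7 held 47 and 46. Away from the ends, bases 40000001 to 41000000 of chromosome 3 held 47 and 39, together with 15 rESC-only peaks, a count that 2 windows reached and none passed. Bases 81000001 to 82000000 of chromosome 10 differed from these, with 49 R_NSCP1-only peaks and 15 shared ones, a share of 76.6%.

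Among windows with at least 10 interior R_NSCP1 peaks, the 5 with the highest share of R_NSCP1-only peaks held 10 to 18 of them. Bases 154000001 to 155000000 of chromosome 3 held 13 R_NSCP1-only peaks, bases 13000001 to 14000000 of chromosome 12 held 11 and bases 101000001 to 102000000 of chromosome 11 held 10, each with 0 shared peaks and 5 or 6 rESC-only ones. On chromosome 9, bases 68000001 to 69000000 held 18 and 1, and bases 56000001 to 57000000 of chromosome 8 held 17 and 1. In 44 windows there was no R_NSCP1-only peak, and 41 of these held no peak of either list. The longest such stretch, at chr20:31000001-44000000, ran over 13 windows, and others of 4 to 6 windows lay on chromosomes 3, 8, 13 and 14. The other 3 windows held 5 R_NSCP1 and 5 rESC peaks between them.

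Most R_NSCP1-only peaks had no other R_NSCP1-only peak within 5000 bp. The median distance to the nearest other R_NSCP1-only peak was 19717.5 bp, against 25820 bp between shared peaks and 69930 bp between rESC-only peaks, and the 3 sets also differ in number. Another R_NSCP1-only peak lay within 5000 bp of 4368 of them, or 11.5% (11.2% to 11.8%). The share was 15.8% (15.3% to 16.3%) among the less numerous shared peaks and 2.12% (1.87% to 2.39%) among rESC-only peaks. At 500 bp the gap between the sets was wider: 2.13% (1.99% to 2.28%) of R_NSCP1-only and 9.77% (9.40% to 10.2%) of shared peaks had a neighbour of their own kind.

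Chaining peaks at most 5000 bp apart gave 2125 clusters of R_NSCP1-only peaks, of which 2013 were pairs, 106 were triplets and 6 held 4 peaks. None held 5 or more, whereas 15 clusters of shared peaks did, with up to 10 peaks. The 6 clusters of 4 lay at chr11:111625169-111633146, chr11:125928510-125935386, chr12:99757691-99767675, chr13:74273031-74279419, chr15:105967558-105975683 and chr7:43537209-43544922. They spanned 6389 to 9985 bp, and no shared R_NSCP1 peak lay inside any of them. In the cluster on chromosome 12 the pileups were 20 to 26 and the −log10 q values 7.70 to 10.2, with the nearest rESC peak 17867 bp away. The former of those on chromosome 11 was the farthest from an rESC peak, at 49961 bp, with pileups of 15 to 22. Cluster sizes depend on the chaining distance. At 20000 bp, 384 clusters of R_NSCP1-only peaks held 5 or more, with up to 16 peaks. For shared peaks there were 175 such clusters, with up to 27 peaks.

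Clustered peaks were slightly higher than single ones and stood on more background. The 4368 peaks in clusters had a median pileup of 13 and a median background of 1.32 fragments, and the 33534 single ones 11 and 0.779. Their median fold enrichments were 5.79 and 5.84. The background was at its genome-wide value for 11.8% of clustered and 39.96% of single peaks. The caller took regional background over 10000 bp, so neighbours within 5000 bp can add to the background of a clustered peak. A higher background also asks a higher pileup for a call. The part of these settings in the differences was not tested.

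The spacing of R_NSCP1-only peaks had a step at 5000 bp. In bins of 500 bp, the number of peaks whose nearest R_NSCP1-only neighbour lay at that distance went from 809 below 500 bp to 298 at 3000 to 3500 bp and 338 at 4000 to 4500 bp. It was 521 at 4500 to 5000 bp, 694 at 5000 to 5500 bp and 739 at 5500 to 6000 bp, and then declined to 426 at 14500 to 15000 bp. The distances to rESC peaks had a step at the same place, with 321 R_NSCP1-only peaks at 3500 to 4000 bp, 467 at 4500 to 5000 bp and 651 at 5000 to 5500 bp. The step was also present between shared peaks, with 105, 194 and 282 in the bins from 4000 to 4500, 4500 to 5000 and 5000 to 5500 bp. Per the file headers the caller took regional background over 10000 bp, and R_NSCP1-only peaks 1000 to 5000 bp from an rESC peak stood on a median background of 1.39 fragments, against 0.944 at 5000 to 10000 bp. The part of that setting in the step was not tested.

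**Figure D4:**
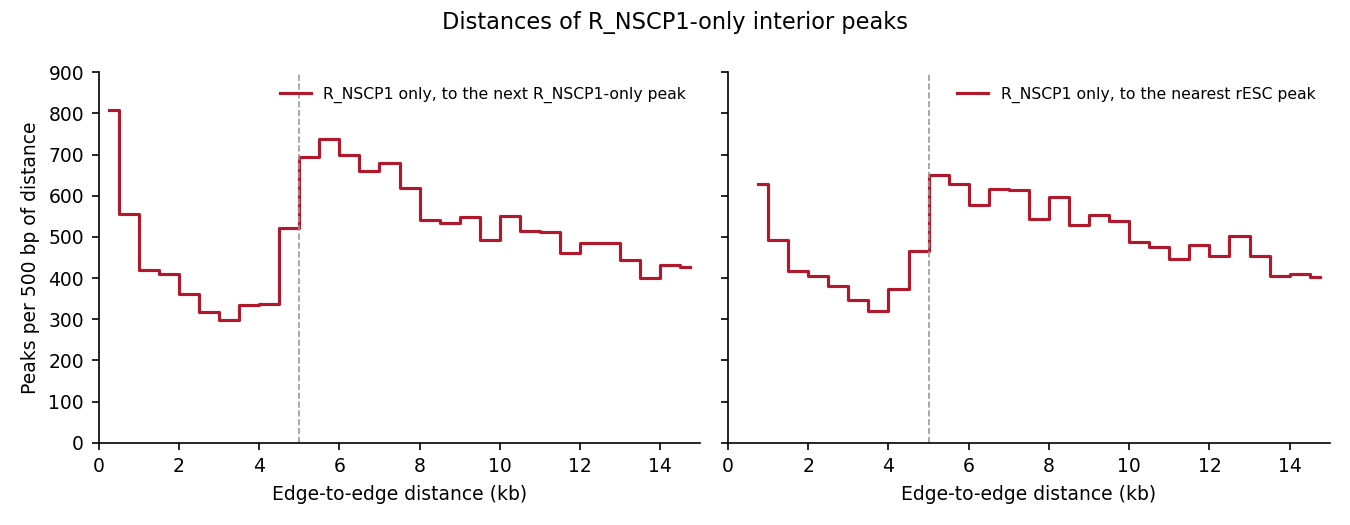
Number of R_NSCP1-only interior peaks per 500 bp of distance (y axis) by edge-to-edge distance in kb (x axis) to the nearest other R_NSCP1-only peak (left) and to the nearest rESC peak (right, from 500 bp on by the rule); the dashed line marks 5 kb. Both curves step up there, on the left from 338 at 4000 to 4500 bp to 694 at 5000 to 5500 bp.

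Most R_NSCP1-only peaks lay more than 10000 bp from the nearest rESC peak of any kind. The median distance to the nearest rESC peak was 21949.5 bp (quartiles 9823 and 45804.8 bp), and the rule sets the lower end. From rESC-only peaks to the nearest peak of the longer R_NSCP1 list, the median was 14170 bp. Distances for randomly scattered peaks were not computed, so these values do not show avoidance of rESC peaks. Of the 37902 peaks, 629 (1.66%) lay within 1000 bp, 3206 (8.46%) at 1000 to 5000 bp, 5849 (15.4%) at 5000 to 10000 bp and 19735 (52.1%) at 10000 to 50000 bp. A further 6096 (16.1%) lay at 50000 to 100000 bp and 2387 (6.30%) farther still. Peaks closer to an rESC peak were higher, with a median pileup of 14 within 5000 bp and 10 beyond 50000 bp, and the background was also higher there, at medians of 1.46 fragments up to 1000 bp and 0.714 beyond 100000 bp. For the 3835 peaks within 5000 bp, the nearest rESC peak had an R_NSCP1 peak of its own within 500 bp in 58.4% (56.8% to 59.9%), against 66.2% of the interior rESC peaks.

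The most isolated peaks had pileups at or below the median of 11. The farthest from any rESC peak, at 473984 bp, was a peak of 282 bp at chr6:30351325-30351606, with a pileup of 10 and a −log10 q of 6.92. Others of the 5 farthest lay nearby, at chr6:30259783-30260018 (387053 bp away) and chr6:30243107-30243346 (370377 bp away). Another of them lay at chr5:114246137-114246372, at 396730 bp. The pileups of the 5 farthest were 6 to 10 and their −log10 q values 2.98 to 6.92, against a median of 6.63 over all R_NSCP1-only peaks.

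R_NSCP1-only peaks lay near lncRNA starts about as often as the other interior peaks. lncRNAs are transcripts that code for no protein, and some act on the methylation or chromatin of nearby genes. A lncRNA start lay within 5000 bp of 155 R_NSCP1-only peaks, or 0.409% (0.350% to 0.478%), against 0.513% (0.429% to 0.612%) of shared and 0.457% (0.350% to 0.596%) of rESC-only peaks. Within 1000 bp the shares were 0.0976% (0.0708% to 0.135%), 0.127% (0.0891% to 0.181%) and 0.0762% (0.0401% to 0.145%), and within 20000 bp 1.64%, 1.58% and 1.57%. At 1000 bp, 5000 bp and 20000 bp the intervals of the 3 sets overlapped. The median distance to a lncRNA start was 1087046.5 bp, against 1092371 bp for shared peaks. Inside lncRNA bodies lay 214 R_NSCP1-only peaks (0.565%), against 0.614% of shared and 0.559% of rESC-only peaks.

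At 5000 to 20000 bp from the 951 interior lncRNA starts, peaks of all 3 sets were denser than in the interior as a whole on at least one side. Within 1000 bp there were 17 midpoints of R_NSCP1-only peaks upstream and 21 downstream. These were 17.9 per Mb (exact Poisson interval 10.4 to 28.6) and 22.1 per Mb (13.7 to 33.8), with intervals that include the interior mean of 15.3. At 1000 to 5000 bp there were 17.4 and 16.3 per Mb, also with intervals that include it. At 5000 to 20000 bp there were 20.3 per Mb (18.1 to 22.8) upstream and 19.2 (17.0 to 21.6) downstream, above the mean. There, shared peaks numbered 12.3 per Mb (10.5 to 14.2) upstream and 9.25 (7.74 to 10.97) downstream against an interior mean of 9.53, and rESC-only peaks 6.17 (4.95 to 7.60) and 6.24 (5.01 to 7.68) against 4.77. Closer in, shared peaks were above their mean upstream within 1000 bp, at 17.9 per Mb (10.4 to 28.6). They were also above it downstream at 1000 to 5000 bp, at 13.7 (10.2 to 17.9). For rESC-only peaks this held downstream at 1000 to 5000 bp, at 7.62 (5.11 to 10.9). The intervals of the other flanks of these sets within 5000 bp included their means. Flanks of neighbouring starts overlap, so these counts are not independent. Windows rich in lncRNA starts were also richer in R_NSCP1-only peaks, (Pearson r 0.166, Spearman rho 0.180 over the 2426 windows), with 0.159 and 0.160 for shared peaks.

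lncRNA levels near R_NSCP1-only peaks differed between the cell types in both directions. Levels are FPKM values, fragments per kilobase scaled to the library, and each difference is log2(FPKM + 0.1) in R_NSCP1 less the same in rESC, so that changes of weak lncRNAs are understated. There were 165 lncRNAs with an R_NSCP1-only peak within 5000 bp of the start, among 1004 in the interior that reached 0.1 FPKM in either library. Of these, 56 (33.9%, 27.2% to 41.5%) had at least 2 times the rESC level in R_NSCP1, as did 37.5% of all interior lncRNAs, and 52 (31.5%, 24.9% to 39.0%) had at least 2 times the R_NSCP1 level in rESC, as did 31.1%. Their median difference was -0.03, against 0.16 over all interior lncRNAs. Near shared peaks the median was -0.42 (124 lncRNAs) and near rESC-only peaks 0.10 (57).

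Closer to the start, within 1000 bp, the levels of 40 lncRNAs also differed in both directions. Of these, 16 (interval 26.3% to 55.4%) passed 2-fold toward rESC, an interval that includes the 31.1% of all interior lncRNAs. Toward R_NSCP1, 9 passed it (22.5%, 12.3% to 37.50%), and the interior share of 37.55% lay just above that interval. The median difference was -0.49, with quartiles of -2.14 and 0.55. The authors' deposited table, which uses its own criteria, called 6 of the 40 up in R_NSCP1 (15%, 7.06% to 29.1%), where 18.1% of interior lncRNAs were. It called 4 down (10%, 3.96% to 23.1%), where 9.06% were. Both intervals of the authors' calls include the interior share. The 40 lncRNAs were served by 37 peaks, of which some were counted for several transcripts, and the lowest, median and highest pileup over the 40 was 8, 11 and 23. A shared R_NSCP1 peak within 1000 bp marked 30 lncRNAs, of which 9 were higher in rESC and 12 in R_NSCP1, with a median of 0.81. The difference between these lists was not tested.

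**Figure D5:**
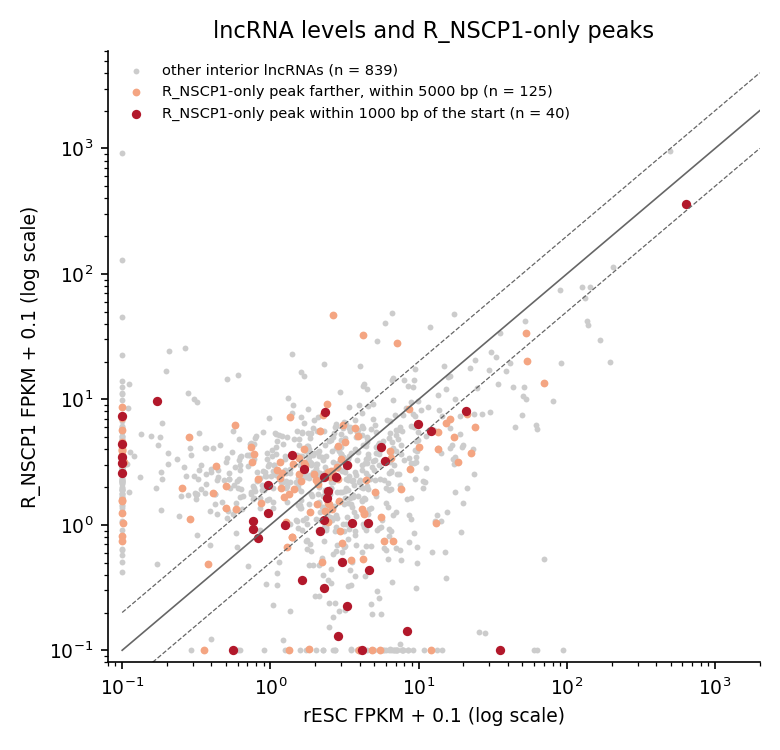
FPKM + 0.1 in R_NSCP1 (y axis, log scale) against rESC (x axis, log scale) for 1004 interior lncRNAs, with those that have an R_NSCP1-only peak within 1000 bp of the start (40) or farther but within 5000 bp of it (125) coloured; the solid line marks equal levels and the dashed lines 2-fold. Coloured lncRNAs lie on both sides of the line, with 16 of the 40 nearest at least 2-fold higher in rESC and 9 in R_NSCP1.

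Several of these 40 lncRNAs were far higher in rESC. The plus-strand lncRNA at chr9:90335077-90346367 had an rESC level of 8.21 FPKM and an R_NSCP1 level of 0.0433, which differ by -5.86 in log2. Its peak at chr9:90335297-90335535 began 220 bp downstream of the start, with a pileup of 13 and a −log10 q of 5.58. The minus-strand lncRNA at chr2:146392698-146414019 reached 35.3 FPKM in rESC and was listed at 0 in R_NSCP1. Here the peak at chr2:146413219-146413458 had a pileup of 19, and the nearest rESC peak lay 1694 bp from it. In the authors' deposited table, the lncRNAs at chr9:90335077-90346367 and chr2:146392698-146414019 were called down in R_NSCP1.

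Over the 16 lncRNAs that passed 2-fold toward rESC, the peaks had pileups of 8 to 23. For the minus-strand lncRNA at chr20:54287124-54376807 the rESC level was 4.06 FPKM, it was listed at 0 in R_NSCP1, and a peak of pileup 10 lay 711 bp downstream. Transcripts at chr8:36253506-36255624 and chr8:36253506-36255623 shared a peak of pileup 9, and their levels were 2.77 and 1.54 FPKM in rESC against 0.0310 and 0.263 in R_NSCP1. The plus-strand lncRNA at chr11:34749612-34755383 went from 3.17 FPKM in rESC to 0.124, or -3.87 in log2, and its peak lay 20581 bp from the nearest rESC peak. The highest −log10 q among the peaks at the 40 lncRNAs, 13.7 with a pileup of 18, was that of chr7:42940603-42940899. It lay 611 bp downstream of a start whose lncRNA had 4.43 FPKM in rESC against 0.935 in R_NSCP1. None of the lncRNAs named in this paragraph was called up or down in the authors' deposited table.

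The opposite direction was found as well. The minus-strand lncRNA at chr2:106544160-106547048 had 0.0717 FPKM in rESC against 9.53 in R_NSCP1, or 5.81 in log2. Its peak, 659 bp upstream, had a pileup of 9, and the nearest rESC peak was 118648 bp away. Listed at 0 in rESC, the minus-strand lncRNA at chr14:52836578-52842171 reached 7.30 FPKM in R_NSCP1, and a peak of pileup 9 lay 817 bp downstream. The lncRNA at chr14:120299698-120300857, also listed at 0 in rESC, reached 3.35 FPKM, and its peak, 418 bp upstream, had a pileup of 22 and a −log10 q of 11.2. Further ones listed at 0 in rESC were those at chr3:51957901-51962321, with 3.01 FPKM in R_NSCP1, and chr4:105854455-105855589, with 2.47. Every lncRNA named in this paragraph was called up in R_NSCP1 in the authors' deposited table.

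Some lncRNAs carried several R_NSCP1-only peaks. The one at chr3:30363737-30598944, listed at 0 in rESC and at 4.31 FPKM in R_NSCP1, had a peak 831 bp upstream of its start and 6 more within its 235208 bp. The highest number within an interior lncRNA body, 7, was found at chr4:21781764-22219915, whose levels were 7.81 FPKM in rESC against 14.2 in R_NSCP1. That body spans 438152 bp, and the interior as a whole held 15.3 R_NSCP1-only peaks per Mb. Bodies with 4 R_NSCP1-only peaks differed in both directions. The one at chr9:90298537-90333373, of 34837 bp, had 11.98 FPKM in rESC and was listed at 0 in R_NSCP1. At chr20:54287124-54467141 the level was 3.58 FPKM in rESC against 1.18 in R_NSCP1. Those at chr2:25986800-26077344, chr3:30389078-30580593 and chr15:48765322-49525113 were higher in R_NSCP1. Longer bodies take in more peaks, and these counts of R_NSCP1-only peaks were not scaled to length. Over the 184 lncRNAs with such a peak in the body, 75 (40.8%) passed 2-fold toward R_NSCP1 and 52 (28.3%) toward rESC, against 37.5% and 31.1% of all interior lncRNAs.

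The most abundant of the 40, chosen after its values were seen, differed less than 2-fold. At chr11:53371688-53372961 the level was 634.1 FPKM in rESC against 362.3 in R_NSCP1, or -0.81 in log2, and a peak of pileup 14 lay 552 bp upstream. By its own criteria, the authors' deposited table called this lncRNA down in R_NSCP1.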

How the data were processed

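Deposited peak lists of 1 R_NSCP1 and 1 rESC MeDIP library and 1 deposited table of 1404 lncRNA transcripts were used; p-values could not be had without replicates. Reads were aligned with BWA 0.7.7, per the submitters' processing notes. Peaks were called with MACS 2.1.0.20150731 in each library alone, without a control, per the file headers, which give 0.01 as the q limit, 3000000000 as genome size, 1 tag kept per position and 10000 bp for regional background. Pileup is a signal in fragments, not scaled between libraries, per the file headers. Fold enrichment, a ratio of pileup over local background, and −log10 q were taken as the authors deposited them. The lncRNA levels are FPKM values deposited by the authors; TopHat2 2.0.11 is listed in the submitters' processing notes, while quantifier and genome build are not given in the sources used here. A deposited p-value column, whose test is not described, was not used. Positions are 1-based.

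Intersections, distances, 1 Mb windows and chains were computed with Python 3.11.15, numpy 2.4.6, pandas 2.3.3 and scipy 1.17.1 and tested on simulated data. Distances run from edge to edge, and chromosome ends were taken as the largest peak end in either list. Local background was solved from pileup and fold enrichment with 1 added to both, as the caller does by default. It counted as genome-wide within 0.002 fragments. Shares carry 95% Wilson intervals. lncRNAs needed 0.1 FPKM in either library, and a pseudocount of 0.1 was used. Named were the 10 R_NSCP1-only peaks with the highest −log10 q, the 5 highest, longest and farthest from rESC peaks, the 5 windows with the most and with the highest share, the largest clusters, and, for lncRNAs reaching 1 FPKM, the 10 largest differences each way within 1000 bp. Examples were taken from these. Windows were ranked by share only where they held at least 10 interior R_NSCP1 peaks. The regions, rules and lists were chosen with earlier results of these data known. Alternatives changed the gap, the q threshold, the list length, the margin, the chaining and lncRNA distances, the pseudocount and the filter on FPKM.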

Additional observations from a re-analysis of the deposited data

How the results depend on the processing

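No paired analysis was possible because each cell type had 1 library per assay. The share of R_NSCP1-only peaks among interior R_NSCP1 peaks stayed above 50% except with stronger peaks or a shorter list. Counting overlap alone as a partner gave a share of 63.3% and a median distance to rESC peaks of 21054 bp. A gap of 5000 bp gave 55.4%, a median of 13 peaks per window and 25259 bp. Limiting the R_NSCP1 list to a −log10 q of at least 5 gave 57.5%, 10 peaks per window, 10.3% with a neighbour within 5000 bp, 20744 bp and a median pileup of 12. At a −log10 q of at least 10 there were 5101 peaks, 30.1%, 2 per window, 1.74% with a neighbour, 18443 bp and a pileup of 17. With lists of equal length there were 16163 peaks, 47.5%, 5 per window, 7.56% with a neighbour, 19086 bp and a pileup of 14. These limits leave fewer and higher R_NSCP1 peaks by construction. A margin of 10 Mb gave 62.2%, 13 per window, 10.96% with a neighbour and 23309 bp. It left out the band 5 to 10 Mb from the ends, where windows held 23.8 R_NSCP1-only peaks at a share of 58.1%. The part of that band in the neighbour share and the distance was not tested. The share with a neighbour was 3.60% at 1000 bp and 50.6% at 20000 bp, and the share near a lncRNA start was 0.0976% at 1000 bp and 1.64% at 20000 bp, since a longer distance takes in more peaks. The median log2 difference of lncRNAs near R_NSCP1-only peaks was 0.42 with peaks of a −log10 q of at least 10, over 19 lncRNAs, against -0.03, and the cause was not tested. Low pileups, with a median of 11 fragments, limit how well presence or absence of a peak can be told at this depth.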
